A study of Mus musculus with 123 samples.

Results

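Axon guidance ligands and receptors were followed in sensory neurons of the mouse dorsal root ganglion (DRG) after sciatic nerve transection (SNT). The members were chosen by symbol from the semaphorin, plexin, neuropilin, Eph, ephrin, Slit, Robo, netrin and FLRT families, and comprise 52 of the 24134 genes in the table. All 52 were found as rows. They are 18 semaphorins, 7 plexins, 2 neuropilins, 7 Eph receptors, 6 ephrins, 2 Robo receptors, 2 Slits, 3 netrin receptors, 2 netrins and 3 FLRT proteins.

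All animals were 2 months old and had the right sciatic nerve cut, and the neurons of the uncut side of the same animals were the control. Day 3 samples came from F1 mice (female, as the paper states) of a CAST/Eij father and a C57BL/6 mother, read at 50 bp. They were 48 SNT-side and 22 control-side picked neurons, and 6 pooled libraries. Day 7 samples came from C57BL/6 mice of both sexes, read at 75 bp, with 33 SNT-side and 14 control-side neurons. Strain, the mix of sexes, read length and day changed together, so that day and those differences cannot be told apart. The labels name no animal for any cell, so a side of a day counts as 1 sample of cells, and no test was run on cells. Each trio of pooled libraries came from 1 lysed pool of neurons that was divided, so p-values for the pools measure the spread between parts of a pool and not between animals. For the cells, the 106 that the authors kept after removing 11 outliers were used, namely 41 SNT-side and 18 control-side neurons at day 3 and all 47 at day 7.

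Guidance cues steer growing axons by binding receptors on the growth cone. Secreted class 3 semaphorins bind a neuropilin that is joined to a plexin, while most membrane semaphorins bind plexins directly. Ephrins bind Eph receptors on contacting cells, Slits bind Robo receptors, netrins bind Dcc and Unc5 receptors, and FLRT proteins are membrane proteins with leucine-rich repeats that bind latrophilins and Unc5 receptors. In the developing DRG these cues set where central and peripheral sensory axons grow, and many of the receptors remain present in adult sensory neurons.

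The side labels were checked with Atf3, a transcription factor induced by axon injury. It was at 7.79, 20.4 and 10.1 CPM (counts per 1000000 counts of a library) in the control pools. In the SNT pools it was at 1693, 1455 and 1505 CPM. CPM values given for single genes in the pools used totals over the tested genes, scaled by edgeR's TMM factors. Sums of markers in the pools, and all cell values, used the plain totals, so these 2 scales differ slightly. All 7 genes of an injury list rose in the SNT pools. The sample identifiers written in the table pair all 6 pooled columns with the opposite side from the column names, and the names were used; under the identifiers every sign of the pooled results would turn. The source label describes all 6 pools as intact and so does not tell the sides apart. Pooled totals were 563462 to 839135 counts for the control side and 1148849 to 2003817 for the SNT side, so that low genes were measured less closely in the control pools. The pools also differed in composition. The sum of 12 glial markers was 13092 to 15690 CPM in the control pools and 6334 to 7187 in the SNT pools, with all 12 above 0 in every pool, and 6 of them fell and 1 rose. Of 10 markers of neuron classes, Nefh and Ntrk3 rose and P2rx3, Mrgprd and Th fell. The sum of 10 immune markers was at most 8.98 CPM in any pool, with 7 of them at 0 in all control pools and 3 at 0 in all SNT pools, and of the 2 tested 1 rose, Csf1r. The sum of 10 vascular and fibroblast markers was 92.95 to 132 CPM in the control pools and 49.0 to 55.4 in the SNT pools, with Pdgfrb and Col1a2 lower and Cldn5 higher. In pools of cells, fewer cells of a type and less RNA per cell cannot be told apart, and the part of these shifts in the results below was not tested.

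The sequences upstream of 4 members that rose in the pools are shown because they are a pair of FLRT genes and the pair of neuropilins, which moved together there. Each is the 250 bases before the RefSeq start site in GRCm38.p6, read 5′ to 3′ on the strand of the gene. The table held a promoter for 43 of the 52 members. The Flrt3 stretch lies at chr2:140671477-140671726 (minus strand), that of Flrt2 at chr12:95691976-95692225, that of Nrp1 at chr8:128358823-128359072 and that of Nrp2 at chr1:62703067-62703316 (all plus strand). Capitals mark matches on either strand to 4 motifs, which are AP-1 (TGACTCA or TGAGTCA), CRE (TGACGTCA), the GC box (GGGCGG or CCGCCC) and the E-box (CACGTG). The GC box matches of Nrp2 include a pair that overlaps.
Flrt3: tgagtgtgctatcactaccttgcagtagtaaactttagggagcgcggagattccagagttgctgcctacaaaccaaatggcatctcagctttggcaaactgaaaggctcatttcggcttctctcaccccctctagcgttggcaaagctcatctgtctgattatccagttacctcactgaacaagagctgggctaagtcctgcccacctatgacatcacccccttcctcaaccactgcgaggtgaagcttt
Flrt2: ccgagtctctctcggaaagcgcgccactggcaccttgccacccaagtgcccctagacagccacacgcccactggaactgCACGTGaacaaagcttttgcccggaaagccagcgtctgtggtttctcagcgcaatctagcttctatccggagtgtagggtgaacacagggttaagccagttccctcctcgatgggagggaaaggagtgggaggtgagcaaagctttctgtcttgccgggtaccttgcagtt
Nrp1: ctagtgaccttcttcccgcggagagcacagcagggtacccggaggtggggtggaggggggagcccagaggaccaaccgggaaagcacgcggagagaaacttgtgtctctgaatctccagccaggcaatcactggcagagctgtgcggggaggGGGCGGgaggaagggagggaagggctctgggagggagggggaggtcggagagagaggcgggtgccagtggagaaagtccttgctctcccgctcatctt
Nrp2: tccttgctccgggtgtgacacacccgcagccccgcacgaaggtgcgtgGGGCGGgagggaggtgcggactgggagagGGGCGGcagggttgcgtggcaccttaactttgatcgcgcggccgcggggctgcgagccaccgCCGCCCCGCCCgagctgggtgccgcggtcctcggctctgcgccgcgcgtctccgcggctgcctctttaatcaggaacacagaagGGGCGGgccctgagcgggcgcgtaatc
The Flrt3 stretch held none of the 4 motifs. Flrt2 held 1 E-box, Nrp1 held 1 GC box and Nrp2 held 5, and the GC content was 50.0% for Flrt3, 57.2% for Flrt2, 64.4% for Nrp1 and 72.4% for Nrp2. An AP-1 match stood before 4.46% of all 32851 promoters, a CRE match before 1.55%, a GC box before 32.7% and an E-box before 6.02%. Of the 11 pool-called members with a promoter in the table, 0 held AP-1, 0 held CRE, 6 held a GC box and 2 held an E-box. Of all 43 members with a promoter, 2 held AP-1, 0 held CRE, 30 held a GC box and 4 held an E-box. The shares of all promoters count promoters, while the members are counted as genes.

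In the pooled libraries at day 3, 12 guidance genes rose and 2 fell on the SNT side. A gene was called when the Benjamini-Hochberg adjusted p of edgeR's quasi-likelihood test was below 0.05 and the log2 change was beyond 1. The 12 that rose were Sema6a, Sema4f, Sema3c, Plxna4, Plxna1, Plxna2, Nrp1, Nrp2, Ephb2, Robo1, Flrt3 and Flrt2, and the 2 that fell were Sema4b and Plxnd1. The test covered the 43 members that averaged 1 CPM or more over the 6 pools. Of these 27.9% were higher, beside 8.853% of the 13509 genes tested, and 4.7% were lower, beside 7.114%. The median log2 change was 0.24 over these members and 0.02 over all genes tested. With library size alone as the scale, the split of all calls turned from 55.45% higher to 43.67% higher and the median of all genes to -0.14, while 12 members rose and 3 fell. The 9 members below the filter were Sema3a, Sema4g, Sema5b, Sema6b, Ephb1, Efna3, Efnb3, Dcc and Ntn1. In all 14 called members the 3 libraries of a side lay apart from the 3 of the other side. That held for 20 of the 43 tested members and for 37.66% of all genes tested.

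**Figure D1:**
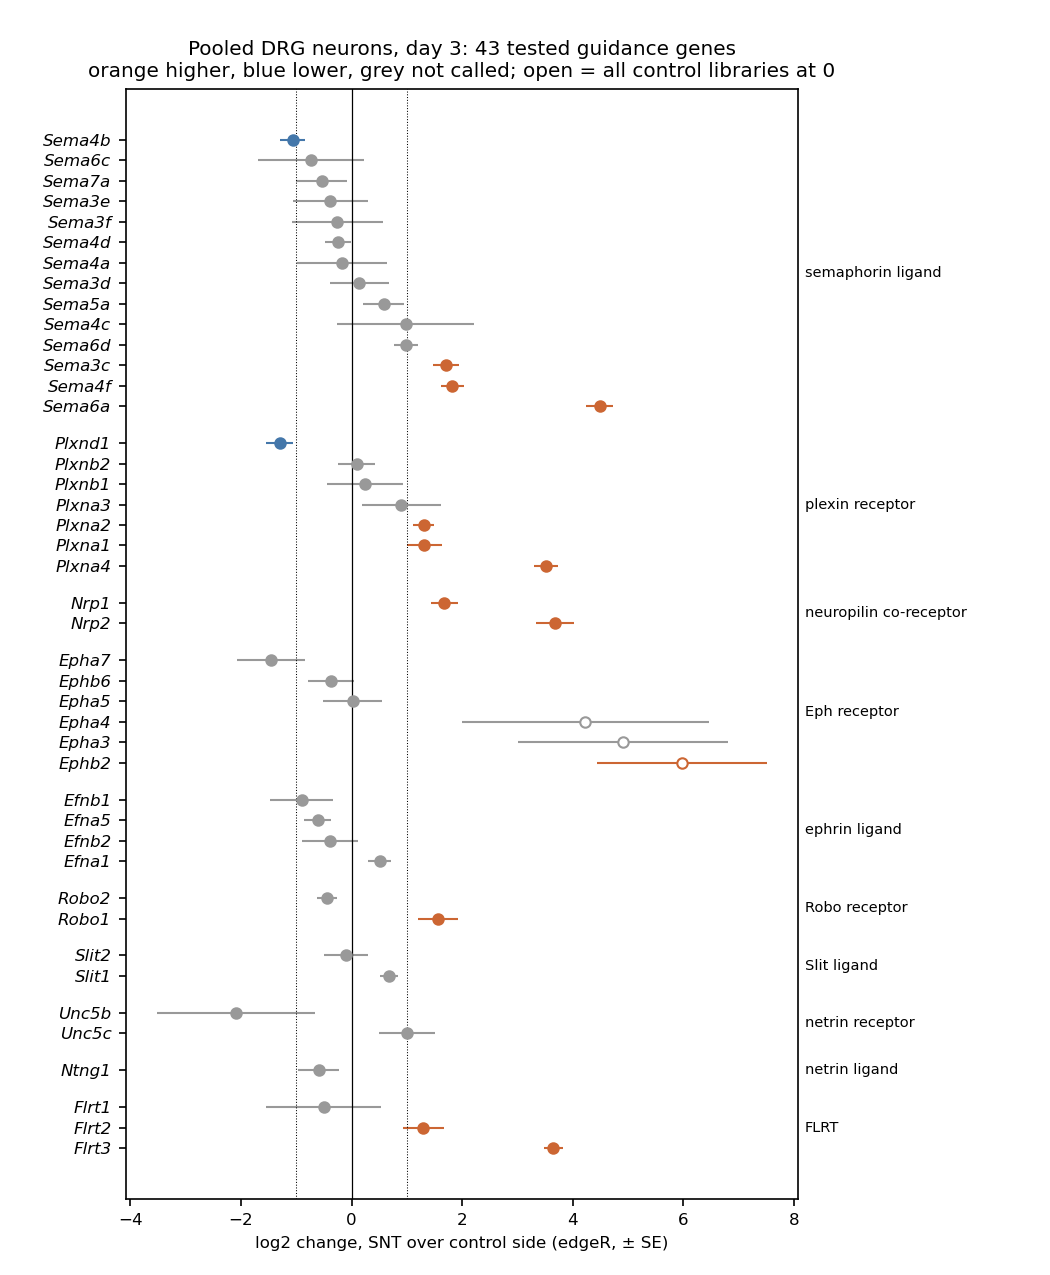
Log2 change, SNT over control side, of the 43 tested guidance genes in the day 3 pools, grouped by role, with bars of 1 standard error and dotted lines at the limits of 1. The largest changes with counts on both sides were those of Sema6a, Nrp2, Flrt3 and Plxna4, between 3.51 and 4.48.

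Semaphorins are the largest group of ligands, and 3 of the 14 tested rose and 1 fell. Sema6a, a membrane semaphorin that binds class A plexins, was at 9.09, 29.5 and 8.41 CPM in the control pools and at 351.9, 373 and 401 CPM in the SNT pools. Every SNT pool was more than 10 times as high as every control pool, and the control pools differed more among themselves, relative to their mean, than the SNT pools did. The log2 change was 4.48 ± 0.25 (SE, 3 libraries a side, adjusted p = 6.62e-18). Sema4f, a class 4 membrane semaphorin, was at 37.7, 68.0 and 50.4 CPM against 194, 158 and 202 CPM, a log2 change of 1.82 ± 0.21 (adjusted p = 4.50e-09). Sema3c, a secreted semaphorin, was at 36.4, 32.9 and 31.95 CPM against 103, 121 and 109 CPM, a change of 1.71 ± 0.23 (adjusted p = 1.74e-07). Both were higher in all SNT pools, with no overlap. Sema4b, another class 4 semaphorin, fell from 117, 108 and 108 CPM to 43.1, 75.7 and 43.2 CPM, a change of -1.07 ± 0.22 (adjusted p = 0.000291). Its SNT pool 2 stood nearer the control pools than the other two, and without SNT pool 1 or 3 the change was -0.92 and no longer passed the fold limit. Sema6d did not reach the fold limit, with a log2 change of 0.98 ± 0.21 (adjusted p = 0.000428), and passed it in 4 alternatives. The other 9 tested semaphorins had changes between -0.73 and 0.98 and adjusted p of at least 0.270.

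Among the semaphorin receptors, 3 class A plexins and both neuropilins rose, and Plxnd1 fell. Plxna4 stood out among the 7 plexins. It is a receptor for class 6 semaphorins and, with a neuropilin, for class 3 semaphorins, and it was at 25.97, 23.8 and 26.9 CPM in the control pools and at 294, 339 and 244 CPM in the SNT pools. The pools of a side were close together and far from the other side, with a log2 change of 3.51 ± 0.21 (adjusted p = 1.10e-16). Plxna1 was at 14.3, 22.7 and 25.2 CPM against 60.004, 59.1 and 35.7 CPM (log2 change 1.31 ± 0.32, adjusted p = 0.00150), and its SNT pool 3 was the nearest to the control pools. Plxna2 was at 62.3, 56.7 and 75.7 CPM against 171, 146 and 158 CPM (log2 change 1.30 ± 0.19, adjusted p = 1.44e-06). The groups did not overlap for either gene. Plxnd1, a receptor for Sema3e, fell from 72.7, 85.0 and 89.1 CPM to 37.5, 36.004 and 27.2 CPM, a change of -1.30 ± 0.24 (adjusted p = 6.10e-05). Plxna3, Plxnb1 and Plxnb2 did not pass the test, with changes of 0.90, 0.24 and 0.09.

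The neuropilins bind class 3 semaphorins and also growth factors of the VEGF family. Nrp2 was at 6.49, 4.53 and 8.41 CPM in the control pools and at 81.3, 79.4 and 84.2 CPM in the SNT pools (log2 change 3.68 ± 0.34, adjusted p = 2.40e-11). Nrp1 was at 22.1, 39.7 and 42.04 CPM against 121, 117 and 93.3 CPM (log2 change 1.68 ± 0.24, adjusted p = 7.92e-07). No control pool of either gene reached an SNT pool. Exons of Plxna1, Plxna4 and Nrp1 overlap those of 1 other gene each in GENCODE M21, over 10.7%, 0.8% and 0.8% of their exon bases. Whether reads were counted by strand is not given in the sources used here, so these reads cannot be assigned to 1 gene. The other 11 called members had no such overlap.

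**Figure D2:**
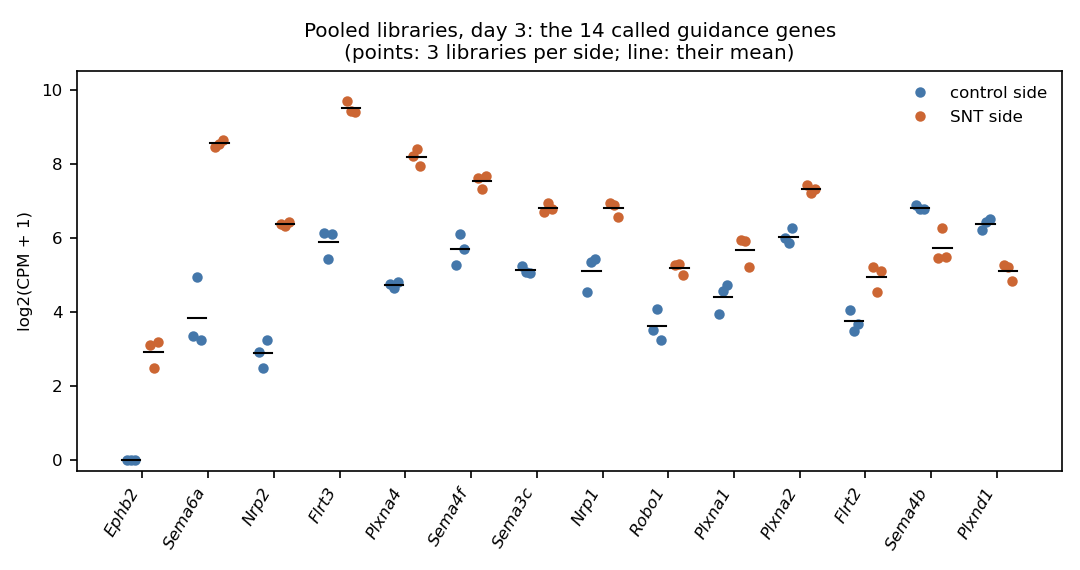
Levels as log2(CPM + 1) of the 14 called guidance genes in each of the 3 control (blue) and 3 SNT (orange) pools at day 3, with a line at the mean of each side. The points of the sides do not overlap for any of the 14, and for Sema6a the control pools are spread from 8.41 to 29.5 CPM.

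Of the Eph receptors, which signal on contact with ephrins, Ephb2 was called. It had 0 counts in each control pool and 7.501, 4.62 and 7.996 CPM in the SNT pools, from 32 counts in all. Against a floor of 3 counts over the control pools together it was at least 5.26-fold higher (edgeR adjusted p = 0.00320). Epha3 was also at 0 in the control pools, with 15 counts in the SNT pools, and narrowly missed the threshold (adjusted p = 0.0543). Epha4 was at 0 in the control pools too, with 8 counts in 2 of the SNT pools. The lower log2 bounds of Ephb2, Epha3 and Epha4 were 2.395, 1.302 and 0.395, all above the median of 0.24 of the 43 members. Placing the genes at these bounds could therefore not move that median. None of the 4 tested ephrin ligands passed the test: Efna1 was at 0.51 ± 0.21 (adjusted p = 0.0720) and Efna5 at -0.61 ± 0.25 (adjusted p = 0.0668). The control pools of Efna5 ranged from 51.0 to 148 CPM and enclosed all 3 SNT pools.

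Slits and Robo receptors gave 1 call. Robo1 rose from 10.4, 15.9 and 8.41 CPM to 37.5, 37.9 and 30.9 CPM (log2 change 1.56 ± 0.36, adjusted p = 0.00107), with every SNT pool above the control pools. Robo2, its close relative, was at 157, 161 and 123 CPM against 101, 102 and 122.6 CPM, and did not pass the test (-0.44 ± 0.18, adjusted p = 0.0705). The ligand Slit1 had an adjusted p of 0.00140 but a log2 change of only 0.68 ± 0.16, under the fold limit, with 131, 150 and 178 CPM against 244, 224 and 260 CPM. Slit2 was at -0.10 ± 0.40. Of the netrin group, Unc5c was at 1.004 ± 0.50 (adjusted p = 0.147), Unc5b at -2.09 ± 1.44 (adjusted p = 0.319) and the membrane-anchored netrin Ntng1 at -0.59 ± 0.37 (adjusted p = 0.263). Dcc had no counts in any pool, and Ntn1 was at 0 in 5 of the 6.

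Of the FLRT genes, 2 of 3 rose, and Flrt3 had the smallest p-value of all members. It was at 68.8, 41.9 and 67.3 CPM in the control pools and at 834, 689 and 676 CPM in the SNT pools, a log2 change of 3.65 ± 0.18 (adjusted p = 9.81e-20). Flrt2 was at 15.6, 10.2 and 11.8 CPM against 36.3, 22.2 and 33.1 CPM (log2 change 1.30 ± 0.37, adjusted p = 0.00801). Both were higher in every SNT pool, but the call of Flrt2 was lost with limma on log2(CPM + 1), after thinning to the shallowest library and without SNT pool 1, with changes of 1.06, 0.94 and 1.17. Flrt1 was at 3.895, 1.13 and 5.04 CPM against 4.38, 1.85 and 0.533 CPM and was not called.

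The rest of the same families and the signalling genes beneath the receptors were counted in 2 further lists. Of 31 other family genes, 23 were tested and 0 rose, 3 fell (13.04%) and 20 were not called. The 3 that fell were Sema3b, a secreted semaphorin (-1.18), Unc5d, a netrin and FLRT receptor (-5.43), and Lrrc4c, a netrin-G ligand (-1.73). Of 55 effectors, all tested, 7 rose (12.73%) and 2 fell (3.636%), beside 8.853% and 7.114% of all genes tested. Those that rose included Crmp1, a collapsin response mediator (log2 change 1.19), Farp1, an exchange factor for Rac (1.56), the actin regulators Enah (1.18) and Mical2 (1.23), the cofilin kinase Limk2 (1.205), and Ngef, an exchange factor beneath Eph receptors, which was at 0 in every control pool and at 27.5, 25.9 and 34.1 CPM in the SNT pools. Chn1, a Rac-inactivating protein beneath Eph receptors (-1.32), and Dock1, an exchange factor for Rac (-1.70), fell.

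In single neurons, each gene was compared as the log2 ratio of mean CPM + 1, SNT over control, and a ratio beyond 1 was counted without a test. The word ratio below stands for this log2 value. Median totals were 1323932 counts on the SNT side and 862619 on the control side at day 3, and 575179 and 738947 at day 7. The sum of the 12 glial markers had medians of 3917 and 3844 CPM at day 3 and of 1516 and 5385 CPM at day 7, and its part in the ratios was not tested. At day 3, 47 members averaged 1 CPM or more, of which 7 were higher by that rule (14.9%, beside 6.78% of 13644 genes) and 9 were lower (19.1%, beside 6.347%). At day 7, 12 of 47 were higher (25.5%, beside 5.986% of 13264 genes) and 2 were lower (4.3%, beside 3.634%). The median ratio of the members was -0.13 at day 3 and 0.22 at day 7, and that of all genes was -0.05 and -0.04. At day 7 the counts turned when medians over cells were used, to 4 higher and 10 lower, and those of all genes turned too, from 794 higher and 482 lower to 561 and 1479. Flrt3, Sema6a and Flrt2 were the members higher on both days, and Sema3e was the member lower on both. At day 3 the Flrt2 ratio was 0.80 without its highest SNT-side cell and the Sema3e ratio was -0.94 without its highest control-side cell, both inside the limit.

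**Figure D3:**
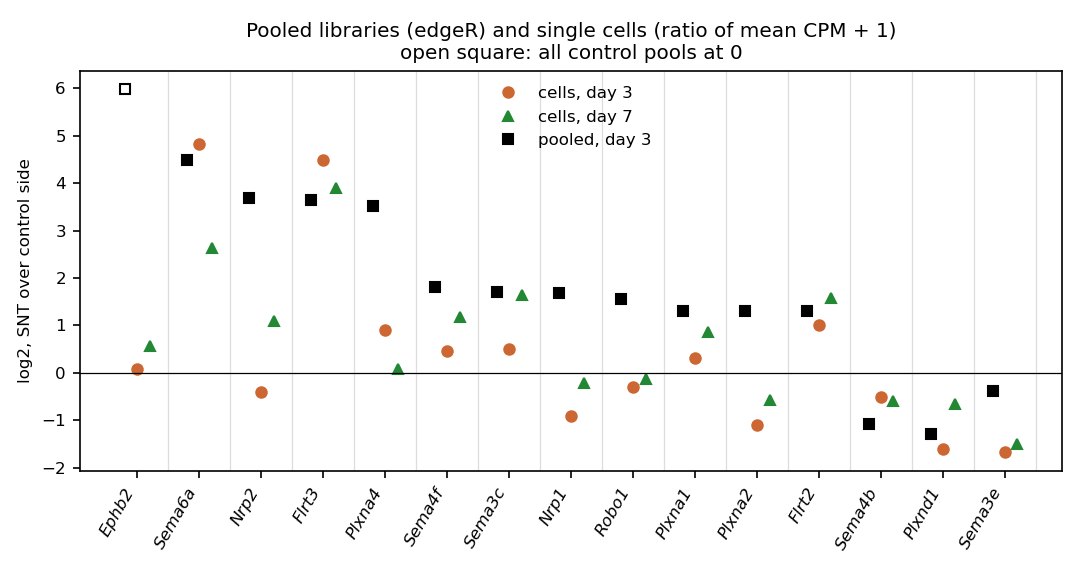
Log2 SNT over control of the 14 pool-called guidance genes and Sema3e, from the day 3 pools (squares), day 3 cells (circles) and day 7 cells (triangles). Flrt3 and Sema6a lie above 2 in all 3, whereas Plxna2 is at 1.30 in the pools and at -1.10 in day 3 cells.

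Flrt3 and Sema6a carried the clearest difference between the sides in single neurons. At day 3 Flrt3 ranged from 11.7 to 1423 CPM on the SNT side, with a median of 781, and from 1.06 to 71.7 CPM on the control side, with a median of 19.4. The mean was 648 ± 427 CPM (SD, n = 41 cells) against 27.8 ± 24.3 (n = 18), a log2 ratio of 4.49. The SNT-side cells did not form 1 range: 30 were above every control cell and 11 lay within the control range. The paper proposes that day 3 SNT-side neurons that cluster with control cells, with little of genes such as Atf3, may be uninjured. If so, SNT-side means mix injured and uninjured cells, which was not tested. Sema6a ranged from 0.852 to 957 CPM on the SNT side with a median of 247, and from 0 to 47.2 CPM on the control side with a median of 1.43. Its mean was 274 ± 238 CPM against 8.72 ± 13.97, a ratio of 4.82, and 31 of the 41 SNT-side cells were above every control cell.

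The same cells carried both genes. Atf3 was above every control cell in 30 of the 41 SNT-side cells at day 3, all at 951 CPM or more, while the other 11 were at 23.04 CPM or less. All 30 cells with high Flrt3 were those 30, and 30 of the 31 cells with high Sema6a were too. At day 7, Atf3 was above every control cell in 12 of the 33 SNT-side cells, and the 12 with high Flrt3 and the 12 with high Sema6a were the same cells. The mean of Flrt3 at day 7 was 215 ± 286 CPM (n = 33) against 13.5 ± 11.7 (n = 14), a ratio of 3.896, and that of Sema6a was 175 ± 235 against 27.5 ± 29.6, a ratio of 2.62. The median SNT-side cell hardly differed from the control side there, at 19.9 against 11.9 CPM for Flrt3 and 21.9 against 19.4 for Sema6a.

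**Figure D4:**
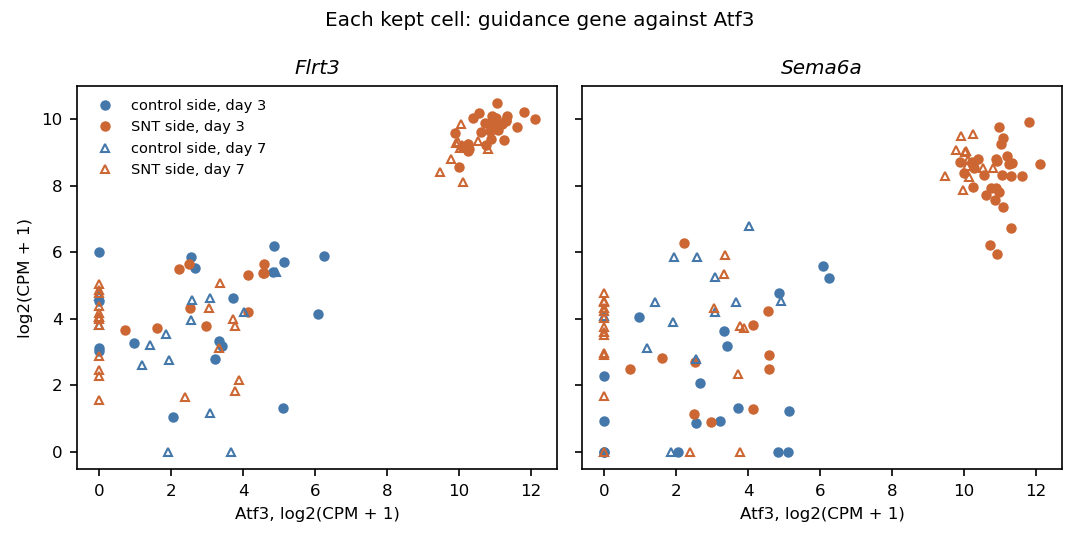
Flrt3 (left) and Sema6a (right) against Atf3 in each kept cell, all as log2(CPM + 1), with control-side cells in blue, SNT-side cells in orange, day 3 filled and day 7 open. The cells form 2 clouds, and every cell of the upper right cloud is from the SNT side.

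Across the 41 SNT-side cells of day 3, the Spearman correlation with Atf3 was 0.815 for Flrt3 and 0.63 for Sema6a. These values span both clouds. Among the 30 cells with high Atf3 they were 0.55 and 0.11, and among the other 11 they were 0.455 and 0.10. The 33 SNT-side cells of day 7 gave 0.66 and 0.71 in all, 0.175 and -0.09 in the 12 cells with high Atf3, and -0.26 and -0.025 in the other 21. Beyond 0.6 in those 33 cells were also Flrt2 (0.676), Plxna1 (0.64) and Flrt1 (-0.713). These gave -0.49, -0.196 and -0.585 in the 12 cells, and 0.102, 0.764 and -0.524 in the other 21. Over the 41 cells of day 3 they gave 0.008, -0.005 and -0.28. Split in the same way, they gave -0.32, -0.756 and -0.241 in the 30 day 3 cells with high Atf3. In the other 11 they gave 0.6, -0.518 and -0.868. Which cells of a side shared library preparation is not given in the sources used here. The cells differ in depth, and the rank correlation of total counts with Flrt3 was 0.31 at day 3 and 0.51 at day 7.

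Flrt2, Sema4f and Sema3c are given side by side on the 2 days, which cannot be compared as such. Flrt2 was at 22.7 ± 35.3 CPM against 10.8 ± 10.8 at day 3 (ratio 1.001) and at 41.98 ± 59.8 against 13.3 ± 8.04 at day 7 (ratio 1.58). Its day 3 median was 8.74 CPM on the SNT side and 8.78 on the control side, so that the ratio of medians was -0.01, and that of day 7 was 0.34. Sema4f was at 124 ± 86.1 against 89.5 ± 59.2 CPM at day 3 (ratio 0.46) and at 223 ± 216 against 98.5 ± 41.2 at day 7 (ratio 1.17), with ratios of medians of 0.69 and 0.24. Sema3c was at 82.9 ± 55.2 against 57.9 ± 63.2 CPM at day 3 (ratio 0.51) and at 43.1 ± 49.8 against 13.1 ± 10.8 at day 7 (ratio 1.65), with ratios of medians of 0.84 and 0.69. At day 7, 14 SNT-side cells exceeded every control cell for Sema4f and 13 for Sema3c, and 12 of each were the 12 cells with high Atf3. At day 3, 7 SNT-side cells exceeded every control cell for Sema4f and 0 for Sema3c.

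Of the semaphorin receptors that rose in the pools, none was beyond 1 in the same direction in day 3 cells. Plxna4 was at 266 ± 214 CPM against 142 ± 163 at day 3 (ratio 0.90), and 2 of 41 SNT-side cells were above every control cell. The share of cells above 10 CPM was 92.7% (95% exact interval 80.1 to 98.5) on the SNT side and 66.7% (40.99 to 86.7) on the control side, intervals that overlap. They cover counting error over cells only. With every cell thinned to 250000 counts the cells above that level were 38 of 41 and 13 of 18. At day 7 Plxna4 was at 334 ± 242 against 316 ± 289 CPM, a ratio of 0.08. Nrp2 was at 28.02 ± 77.6 against 37.2 ± 74.1 CPM at day 3 (ratio -0.40) and at 81.5 ± 128 against 37.4 ± 46.1 at day 7 (ratio 1.10). Its median was 2.85 against 2.18 CPM at day 3, and 1 cell held 35.8% of the SNT-side sum and 1 held 35.2% of the control-side sum. At day 7 its ratio was 0.88 without the highest SNT-side cell. Nrp1 was at 45.5 ± 91.8 against 86.1 ± 128 CPM at day 3 (ratio -0.90) and at 62.1 ± 93.4 against 72.3 ± 97.9 at day 7 (ratio -0.22). For both neuropilins the SD exceeded the mean on each side of each day, and the ranges of the sides overlapped.

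Plxna2 had opposite signs in the 2 kinds of day 3 library. It was at 73.1 ± 83.8 CPM in SNT-side cells and 158 ± 168 in control-side cells, a ratio of -1.10, whereas it had risen by 1.30 in the pools. Without the highest control-side cell the ratio was -0.88. At day 7 it was at 219 ± 210 against 324 ± 325 CPM (ratio -0.56). Plxna1 kept its sign, with ratios of 0.30 and 0.86, and Plxnd1 did too, with 38.6 ± 52.2 against 120 ± 94.8 CPM at day 3 (ratio -1.61) and 36.9 ± 58.6 against 58.2 ± 54.8 at day 7 (ratio -0.65). Of the 14 pool-called members, 10 had the same sign in day 3 cells and 4 went beyond 1 in that direction. Those 4 were Flrt3, Sema6a, Flrt2 and Plxnd1. The class markers Nefh and P2rx3 also had opposite signs in the 2 kinds of library. Nefh was at 1.19 in the pools and -0.38 in day 3 cells, and P2rx3 at -1.23 and 0.15. The other class markers are not compared here. The part of cell class in these differences was not tested.

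**Figure D5:**
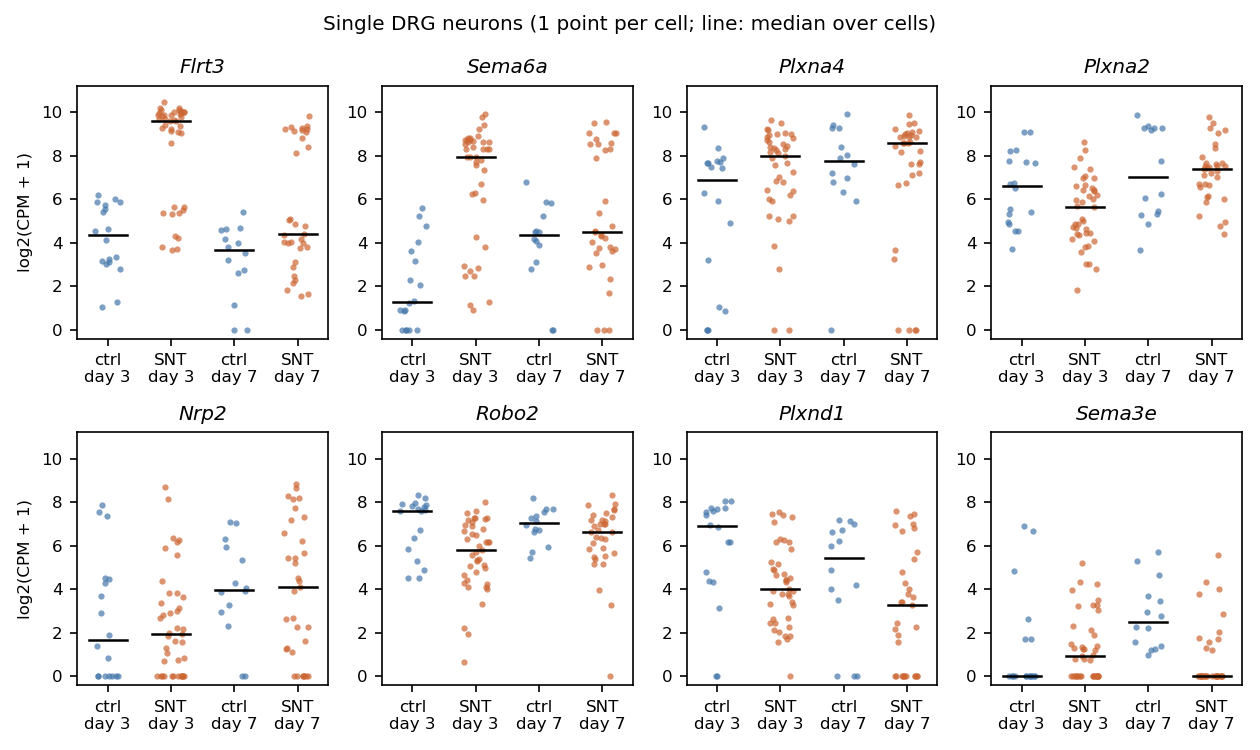
Levels of 8 guidance genes as log2(CPM + 1) in every kept cell, by side and day, with a line at the median over cells. At day 3 the SNT-side cells of Flrt3 and Sema6a fall into a high and a low set. Over all 41 SNT-side cells the median is 781 CPM for Flrt3 and 247 CPM for Sema6a. For Nrp2 and Plxna2 the sides overlap over most of their range.

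The remaining pool-called members had ratios under 1 in size in cells. Robo1 was at -0.30 and -0.12 on the 2 days, Sema4b at -0.51 and -0.60, and Ephb2 at 0.08 and 0.57. Ephb2 was above 10 CPM in 2 of 41 SNT-side and 0 of 18 control-side cells at day 3, and in 6 of 33 and 0 of 14 at day 7. The upper 95% exact limits of the control shares were 18.5% and 23.2%. After thinning the counts of cells were 4 and 1 at day 3 and 6 and 3 at day 7. Sema3e, the ligand of Plxnd1, was at 3.79 ± 7.1 against 14.3 ± 35.6 CPM at day 3 (ratio -1.68) and at 3.439 ± 9.14 against 11.6 ± 15.5 at day 7 (ratio -1.504). At day 3 its median was 0.900 on the SNT side and 0 on the control side, where 1 cell held 46.1% of the sum. At day 7, 22 of 33 SNT-side cells were at 0, below every control cell, of which the lowest was at 0.982 CPM. That is about the level of 1 count, and the SNT-side cells were shallower. In the pools Sema3e did not pass the test (-0.38 ± 0.68).

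Several members were beyond 1 on 1 day only. At day 3 Robo2 was at 74.2 ± 61.7 against 162 ± 99.1 CPM (ratio -1.12), and 10 of 41 SNT-side cells were below every control cell. Its day 7 ratio was -0.33. Plxnb1, a receptor for Sema4d, was at 9.06 against 1.65 CPM at day 3 (ratio 1.92) with 15 of 41 SNT-side cells above every control cell. At day 7 Slit2 was at 51.3 ± 83.6 against 8.05 ± 27.9 CPM (ratio 2.53), and Sema5a at 170 ± 243 against 39.2 ± 83.7 (ratio 2.09). A single cell held 93.1% of the control-side sum of Slit2 and another 58.1% of that of Sema5a, and without it the ratios were 5.03 and 3.193. The netrin receptor Dcc, which had no counts in the pools, was at 4.99 ± 9.90 against 0.196 ± 0.500 CPM at day 7 (ratio 2.32), and 16 of 33 SNT-side cells were above every control cell. Only 4 of them exceeded 10 CPM.

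The day 7 cells were 16 female and 17 male on the SNT side and 7 of each sex on the control side. The ratio of Flrt3 was 4.54 in female and 2.91 in male cells, that of Sema6a 3.331 and 1.63, that of Flrt2 1.90 and 1.25, and that of Sema3e -1.51 and -1.496. Slit2 was at 5.58 in female cells, where the control mean was 0.352 CPM, and at 1.28 in male cells. A single cell held 95.2% of the male control-side sum of Slit2, and without it the male ratio was 4.43. Without the highest male SNT-side cell that ratio was 0.78. The difference between the sexes was not tested.

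Presence of receptor parts in the same cells was counted, with a level above 10 CPM taken as present. At day 3 all 17 SNT-side cells with Nrp1 had Plxna4 and Plxna2, and all 11 with Nrp2 did too. The 10 control-side cells with Nrp1 and the 7 with Nrp2 had both plexins as well. Plxna2 was present in all 18 control-side and in 37 of 41 SNT-side cells, and Plxna4 without Nrp1 was found in 21 SNT-side and 2 control-side cells. Nrp1 and Nrp2 were both present in 9 of 41 SNT-side and 6 of 18 control-side cells, and neither in 22 and 7. Since both plexins were present in nearly all SNT-side cells, their overlap with the neuropilins is close to fixed. Plxnd1 was present in 7 of the 17 SNT-side and 7 of the 10 control-side cells with Nrp1. Slit1 and its receptor Robo2 were both present in 35 of 41 and 15 of 18 cells at day 3, and in 25 of 33 and 14 of 14 at day 7. Slit1 and Robo1 were both present in 10 of 41 SNT-side cells at day 3, and Slit1 alone in 28. Flrt3 and Sema6a were both present in 33 of 41 SNT-side and 3 of 18 control-side cells at day 3.

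Some members varied with markers of neuron classes among the cells of a side. Correlations across cells are given as a description and only where Spearman's coefficient was beyond 0.6. Pairs of a member with Atf3, with a class marker or with another member were counted together. Of these pairs, 29 of 990 among the SNT-side cells of day 3 reached that limit, and 95 of 1140 at day 7. On the control side, with fewer cells, 89 of 594 and 151 of 759 pairs did. Sema7a, which is anchored to the membrane, had a coefficient with Nefh, a neurofilament of large neurons, of 0.76 (n = 41) and 0.67 (n = 33). Unc5c had 0.69 with Nefh at day 3, and 0.64 in the 18 control cells. Plxna2 had -0.65 with P2rx3, a marker of nonpeptidergic nociceptors, on the SNT side and -0.69 on the control side of day 3, but 0.31 and 0.39 at day 7. Plxna1 had -0.72 with Calca, the gene of the peptide CGRP, on the SNT side of day 3, -0.69 on the SNT side of day 7 and -0.71 on its control side. Efnb2 had -0.80 with Calca in SNT-side cells and -0.74 in control-side cells of day 7. The coefficient of total counts with these 5 genes lay between -0.47 and 0.50 in the groups named.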

How the data were processed

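Libraries were made from single picked DRG neurons and from pooled DRG neurons by Smart-seq2. The authors demultiplexed reads with CASAVA 1.8.2, aligned them with bowtie2 to mm9, removed ribosomal RNA and ran RSEM on RefSeq exons. The deposited values are expected counts, although the tables are named TPM, since column totals differ and many entries are whole numbers (60.7% to 93.6% of the nonzero entries, depending on the library). They were not divided by gene length, so levels were not compared between genes. All 123 columns were used.

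The test on the pools was run in edgeR 4.0.16 (TMM, quasi-likelihood test, prior count 0.125) on rounded counts of genes with a mean CPM of 1 or more, and p-values were adjusted over all of them. The procedure was checked on simulated counts. Cells were scaled by their total counts only, and a pseudocount of 1 CPM was added to each side mean. The day 7 cells were placed by their titles, since the protocol label names both days. RLE factors, DESeq2 1.42.0, limma 3.58.1, other filters, thinning and left-out libraries were the alternatives. Every member could be named: those called in the pools got all values, those beyond a log2 ratio of 1 on both days with a mean of 10 CPM or more got cell values, and the rest are given by counts, ranges or single values. The members that were beyond 1 on a single day, the shared high cells and the pairs of present genes were chosen after their values were seen. The members and lists were chosen with earlier results of these data known. Counting intervals are exact (Clopper-Pearson) and, without molecular identifiers, cover counting error only. Promoters are from RefSeq (GRCm38.p6), which is not the build of the counts. One effector that rose is not reported here.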

Additional observations from a re-analysis of the deposited data

Results flagged for a closer look

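The 11 cells that the authors removed as outliers entered only an alternative run of the day 3 ratios. In the 7 of them from the SNT side of day 3, the median was above all 22 control-side cells of that day for 3 members: 152 CPM for Sema6a, 42.01 CPM for Plxnb1 and 123 CPM for Plxnb2. The highest control-side cells were at 53.6, 35.7 and 101 CPM, and each of these was itself a removed cell. Over the 4 removed control-side cells the medians were 28.4, 6.72 and 83.1 CPM. For Plxnb2 all 4 were above the highest kept control-side cell, at 49.5 CPM.

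Ntng1 was beyond the limit in opposite directions on the 2 days, with a log2 ratio of 1.29 in day 3 cells and -1.06 in day 7 cells. The day 3 medians of both sides were 0, and without its highest SNT-side cell, which held 45.9% of that side's sum, the ratio was 0.54. At day 7 it was -0.77 without the highest control-side cell. Plxna2 went opposite ways in the 2 kinds of day 3 library, with a log2 change of 1.30 in the pools and a log2 ratio of -1.10 in cells (-0.88 without the highest control-side cell). Unc5b was at 1.18 in female and -1.38 in male cells of day 7. These were 0.59 without the highest female SNT-side cell and -0.63 without the highest male control-side cell. None of these differences was tested.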

How the results depend on the processing

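Of the pooled libraries, 11 to 13 members rose under every alternative run, and 2 fell under each except library size alone (3) and some left-out libraries. Leaving out 1 library gave 12 to 13 that rose and 1 to 3 that fell, with 1 without SNT replicate 1 or 3 and 3 without control replicate 2. With a replicate block 12 rose and 2 fell. Library numbers did not pair the samples: same-numbered libraries had correlations of 0.068, -0.015 and -0.010 of their deviations from the side means. No paired analysis was possible for cells, whose numbers are only names and which had no test. For the 14 called members and Sema6d, Slit1, Epha3 and Robo2 no alternative turned a sign in the pools, 6 values lost a call and 7 gained one. Other tested members did turn, at most 5 under 1 alternative, and none of them was called.

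For cells of day 3, a pseudocount of 5 CPM gave 4 of 47 members higher and 4 lower (all genes 3.694% and 3.225%). A mean of at least 10 CPM gave 3 higher and 6 lower of 26 (all genes 5.048% and 5.435%). Adding the cells that the authors removed gave 7 higher and 6 lower of 47 (all genes 6.488% and 4.909%). For day 7, medians over cells gave 4 higher and 10 lower (all genes 561 and 1479, against 794 and 482). A pseudocount of 5 CPM gave 8 higher and 0 lower of 47 (all genes 2.797% and 1.553%). A mean of at least 10 CPM gave 8 and 1 of 32 (all genes 3.699% and 2.709%). Median-of-ratios scaling gave 13 and 1 of 47 (all genes 6.793% and 3.144%). Female cells alone gave 15 and 7 of 46 (all genes 8.219% and 8.196%), and male cells alone 10 and 3 of 46 (7.328% and 4.504%). By medians over cells the day 3 ratio turned for 10 of 47 members, of which Flrt2 (-0.0057), Sema3e (0.93) and Epha5 (0.42) had been beyond 1, and the day 7 ratio for 8 of 47. Ratios without the highest cell of 1 side were added after seeing the data. The cause of these shifts was not tested. Control pools, at 563462 to 839135 counts, set the precision of low genes.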
